A study of Mus musculus with 3 samples.

Results

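The nuclei described here are excitatory neurons of the mouse prefrontal cortex (PFC) that carry the mRNA of *Rorb*, a marker of the middle cortical layers. They were chosen from single nucleus RNA-seq (snRNA-Seq) counts as nuclei with at least 3 *Rorb* UMIs (unique molecular identifiers, each standing for 1 counted mRNA molecule) and at least 1 UMI of *Slc17a7*, the vesicular glutamate transporter of excitatory cortical neurons. They also had no UMI of the inhibitory neuron genes *Gad1*, *Gad2* and *Slc32a1* or of the astrocyte genes *Aqp4* and *Slc7a10*, at most 2 UMIs over the upper layer genes *Cux2*, *Otof* and *Rasgrf2*, and at most 1 over the layer 6 genes *Foxp2* and *Hs3st4*. A nucleus was kept when it had at least 200 genes and under 10% mitochondrial counts. These limits gave 1164 nuclei of the 43464 kept, and they are called *Rorb* nuclei below. Since these 12 genes chose the nuclei, their own levels are a description.

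*Rorb* (ENSMUSG00000036192, chromosome 19, 18930605 to 19111196 of mm10) encodes RORβ, a nuclear receptor that binds DNA and is transcribed in neurons of layer 4 and upper layer 5. In sensory cortex such neurons receive the main thalamic input and many of them send their axons to nearby cortex. Mouse PFC is a largely agranular cortex, without the dense layer 4 of sensory areas. *Rorb* is also transcribed in astrocytes, and RORβ, RORα and the REV-ERB receptors share DNA half-sites and take part in the circadian clock.

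The 3 libraries came from PFC of male mice aged 6 to 8 weeks. The first was a pool of 5 wild-type C57BL/6 mice and the second a pool of 4 *Nav1* KO mice of the same strain, in which a stretch at the end of exon 1 was deleted in all cells by genome editing. The third was from BTBR T<+> Itpr3<tf>/J mice, an inbred strain whose genome differs from C57BL/6 at many places. Its number of mice and its genotype at *Nav1* were not given in the sources used here. Nuclei were sorted as NeuN+ and NeuN- fractions, so the share of neurons was set in part by the sort, and the labels call the samples neurons.

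There was 1 library per group and therefore no test between groups was possible. All intervals below are exact 95% intervals. They reflect how many molecules were counted and not the spread between mice, and were taken from the Poisson distribution for a level, the Clopper-Pearson method for a share and the binomial split of the counts for a ratio. Levels are counts per 1000000 (CPM), that is, the counts of a gene summed over a set of nuclei relative to all counts of those nuclei. In a run of 3 values the order is C57BL/6, *Nav1* KO and BTBR. The deposited matrices held 39757390, 52124992 and 49842899 counts, and the kept nuclei had a median of 2074, 2754 and 2510.5 UMIs. Between 55 and 66 kept barcodes were shared by a pair of libraries, and no barcode was a *Rorb* nucleus in more than 1 library.

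*Rorb* nuclei made up 2.01% of the kept nuclei in the C57BL/6 library (interval 1.79 to 2.25, 294 nuclei), 3.34% in *Nav1* KO (3.05 to 3.65, 469 nuclei) and 2.71% in BTBR (2.46 to 2.99, 401 nuclei). Of the nuclei that met every other clause, 4.77%, 8.26% and 6.72% had 3 or more *Rorb* UMIs. The 3 intervals of the kept share did not overlap, and the *Nav1* KO share was the highest. A minimum of 3 UMIs favours deep nuclei, and depth moved in the same order. *Rorb* nuclei had a median of 3319.5, 3948 and 3638 UMIs, and nuclei with no *Rorb* UMI that met the other clauses (*Rorb*-0 nuclei, 4807, 4243 and 4470 of them) had 2235, 2791 and 2622.

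Within bands of total UMIs below 6000 the intervals of the libraries overlapped. Between 2000 and 3000 UMIs the share was 4.98% (4.00 to 6.11), 6.39% (5.22 to 7.73) and 6.27% (5.23 to 7.45), and between 4000 and 6000 UMIs it was 9.54%, 11.4% and 10.8%. *Nav1* KO stood above C57BL/6 in each of the 5 bands, but only at 6000 UMIs or more were their intervals apart, with 10.6% (7.09 to 15.0) in C57BL/6 and 18.5% (15.3 to 22.0) in *Nav1* KO. BTBR was at 19.4% (15.5 to 23.8) there. Below 2000 UMIs BTBR was the lowest, at 1.56% against 1.72% in C57BL/6.

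**Figure D1:**
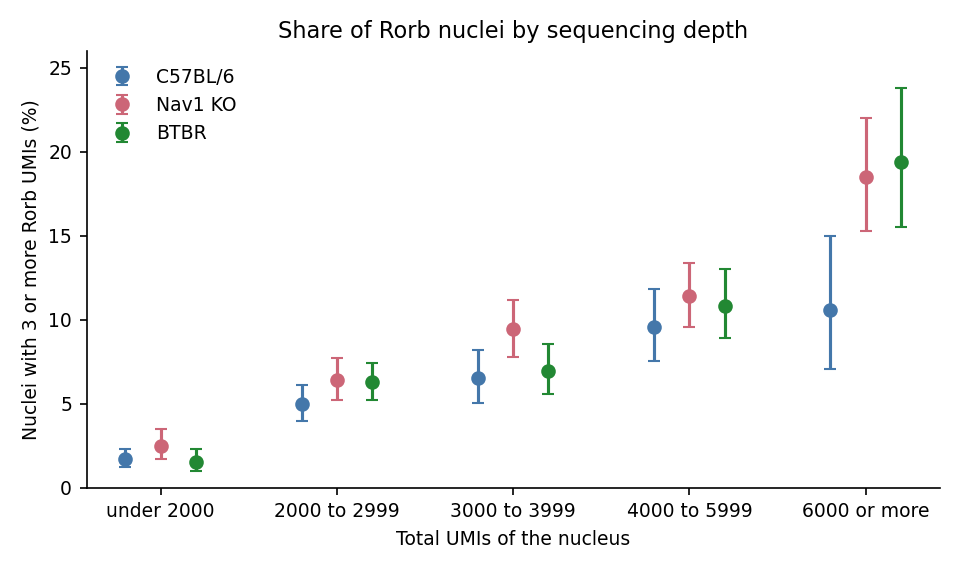
Share of nuclei with 3 or more *Rorb* UMIs among those meeting the other clauses (%, vertical axis) by total UMIs of the nucleus (horizontal axis), for 3 libraries. Points are shares and bars exact 95% intervals for counting error. The share climbs with depth in each library, from 1.56 to 2.51% under 2000 UMIs to between 10.6 and 19.4% at 6000 UMIs or more.

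Many *Rorb* nuclei sat at the limit. Exactly 3 *Rorb* UMIs were found in 147, 212 and 169 of them (50.0, 45.2 and 42.1%), and the highest count was 9, 18 and 16. Just outside the limit, with 2 UMIs, lay 297, 352 and 354 nuclei. Some genes were close on either side and others were not. *Kcnk2* was at 336, 342 and 341 CPM in nuclei with 2 *Rorb* UMIs and at 396, 374 and 452 CPM in those with 3, and *Slc17a7* at 767, 862 and 979 CPM against 767, 892 and 935 CPM. *Rspo1* was at 7.35, 7.45 and 9.05 CPM with 2 *Rorb* UMIs and at 17.2, 10.9 and 12.7 CPM with 3, and *Bcl11b* at 54.6, 50.1 and 87.2 CPM against 38.3, 39.4 and 47.5 CPM. *Pamr1* was at 60.9, 90.1 and 92.1 CPM against 91.8, 84.2 and 99.6 CPM.

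Other cell types in the same libraries give the background of *Rorb* counts. Nuclei with at least 3 UMIs over the inhibitory genes, no *Slc17a7* and no astrocyte gene reached 3 *Rorb* UMIs in 0.749% (0.0908 to 2.68), 0.212% (0.00536 to 1.17) and 1.18% (0.434 to 2.55) of cases, at median depths of 2605, 2768 and 2653 UMIs. That was below the 4.77 to 8.26% of the excitatory nuclei, whose median depth was 2365, 2992 and 2728 UMIs. Nuclei rich in oligodendrocyte markers reached it in 2 of 205, 0 of 149 and 3 of 150 cases at lower depth, and 3 counts of the total, the limit used here for a 0, allow a share of up to 2.01% (exact upper bound 2.45%). Nuclei with microglia markers, which were few and shallow (33, 63 and 48 nuclei, median depths of 921, 994 and 845 UMIs), reached it in 6.06% (0.743 to 20.2), 1.59% (0.0402 to 8.53) and 2.08% (0.0527 to 11.1) of cases, with *Rorb* at 147, 89.0 and 151 CPM. Their intervals overlap those of the excitatory nuclei. In contrast, nuclei with 2 or more UMIs of *Aqp4* and *Slc7a10* and no *Slc17a7* reached it in 29.2%, 32.6% and 33.5% of cases, with *Rorb* at 776, 688 and 652 CPM. Of all 636, 1157 and 1089 kept nuclei with 3 or more *Rorb* UMIs, 100, 314 and 324 carried an astrocyte gene of the rule and 149, 343 and 450 an inhibitory one.

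The markers of excitatory neurons were present, and of the middle layer markers a few were higher than in *Rorb*-0 nuclei. Both sets were chosen for *Slc17a7*, so that their likeness in excitatory markers does not test the label. *Slc17a7*, a gene of the rule, was at 768, 856 and 896 CPM. None of the 6 other excitatory markers compared was past 1.5-fold against *Rorb*-0 nuclei, and their summed level was 1094, 1080.1 and 1053 CPM against 1079.9, 1023 and 960.0 CPM. Of 11 middle layer (L4/5 IT, intratelencephalic) markers beside *Rorb*, *Kcnh5*, *Rspo1* and *Whrn* were clearly higher in *Rorb* nuclei. *Rspo1*, a secreted activator of Wnt signalling, was at 21.0, 14.4 and 18.1 CPM and 8.08 (4.51 to 14.2), 4.43 (2.70 to 7.17) and 5.81 (3.51 to 9.52) times its level in *Rorb*-0 nuclei. *Whrn*, a scaffold protein of stereocilia and axons, was at 29.2, 35.3 and 35.6 CPM, with ratios of 3.18, 3.70 and 3.18. *Rspo1* and *Whrn* lay under the level set for the counts of genes below.

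The other middle layer markers had ratios that varied between libraries, ratios near 1 or few counts. *Il1rapl2*, a synaptic receptor of the interleukin-1 receptor family, had ratios of 1.63, 1.44 and 3.29. *Tox*, a DNA-binding protein, had ratios of 0.860, 1.14 and 1.09. *Scnn1a*, *Hsd11b1*, *Endou*, *Batf3* and *Colq* were between 0 and 4.09 CPM, and *Tmem215* between 4.09 and 8.22 CPM. *Scnn1a*, *Batf3* and *Colq* had no count in the BTBR nuclei, and *Scnn1a* had 1 and 2 counts in the other libraries. The sum over these 11 markers was 196, 177 and 189 CPM in *Rorb* nuclei and 97.6, 87.5 and 87.1 CPM in *Rorb*-0 nuclei.

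Markers of other cell types were present at various levels. The inhibitory neuron markers outside the rule summed to 79.5, 49.7 and 106 CPM in *Rorb* nuclei and 107, 85.3 and 143 CPM in *Rorb*-0 nuclei. The striatal markers stood at 683, 590.0 and 534 CPM against 682, 507 and 527 CPM, mostly from *Pde10a*, a phosphodiesterase that cortical neurons also transcribe. The oligodendrocyte markers were at 253, 129.6 and 127 CPM against 232, 214 and 151 CPM, the microglia markers between 13.0 and 43.2 CPM and the endothelial markers between 1.17 and 2.32 CPM. In *Nav1* KO the inhibitory and oligodendrocyte sums were thus over 1.5-fold lower in *Rorb* nuclei. The olfactory bulb markers were at 38.4, 75.7 and 72.5 CPM against 36.6, 122 and 129 CPM.

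The main comparison set *Rorb* nuclei against *Rorb*-0 nuclei of the same library. Among 6425 genes with a mean of at least 20 CPM over the 2 sets in each library, 72 (1.12%) were at least 1.5-fold higher in *Rorb* nuclei in all 3 libraries and 61 (0.949%) at least 1.5-fold lower. The median ratio over these genes was 0.985, 0.999 and 0.980, and 90% of the ratios lay between 0.687 and 1.36 in C57BL/6, 0.727 and 1.38 in *Nav1* KO and 0.726 and 1.31 in BTBR. The 2 sets were thus alike in most genes, and a small number stood far out. When *Rorb*-0 nuclei were matched to *Rorb* nuclei on total UMIs, 66 and 60 genes were past the limit, and they held 49 of the 72 higher genes and 43 of the 53 lower genes that could be compared.

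Potassium channel genes held the first and second rank among the higher genes. *Kcnh5* came before *Kcnk2* by 3.07 against 3.03 in the least extreme library. Under some alternatives the order turned, as with *Rorb* at 2 UMIs or more (2.66 against 2.75). *Kcnh5* was under the 20 CPM of the filter in *Rorb*-0 nuclei of each library. It reached that average only through its level in *Rorb* nuclei, so the filter had a part in its rank. With an average of 50 CPM required, *Kcnh5* was not compared and *Kcnk2* stayed at 3.03. *Kcnk2* (ENSMUSG00000037624, chromosome 1, 189207930 to 189402273, minus strand), which encodes the 2-pore channel TREK-1, was at 421, 425 and 433 CPM in *Rorb* nuclei and at 139, 122 and 135 CPM in *Rorb*-0 nuclei. Its ratio was 3.03 (2.73 to 3.37), 3.47 (3.20 to 3.77) and 3.21 (2.94 to 3.50), with intervals that overlapped between the 3 libraries. *Kcnh5* (chromosome 12, 74897220 to 75177332), a voltage-gated channel of the EAG family and a marker of the L4/5 IT list, was at 62.1, 46.0 and 42.7 CPM, with ratios of 4.04 (3.02 to 5.36), 4.15 (3.18 to 5.38) and 3.07 (2.31 to 4.06). *Kcna2*, the Kv1.2 subunit, was the third of 31 potassium and HCN channel genes compared that was higher, against 1.12% of all genes, at 1.79, 1.52 and 1.62. *Kcnn2*, a calcium-activated SK channel, was lower at 0.649, 0.615 and 0.654. The median of the 31 was 1.02, 1.18 and 1.07.

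Some of the other leading genes encode proteins of the cell surface or secreted proteins, which was not tested as a theme. *Pamr1*, a secreted protein with a protease-like domain, was at 81.3, 96.2 and 102 CPM against 28.5, 27.1 and 30.9 CPM, with ratios of 2.85, 3.54 and 3.29. *Boc*, a receptor of the immunoglobulin family that binds Sonic hedgehog, was at 35.6, 41.8 and 45.0 CPM and had ratios of 2.83, 2.99 and 2.86. *Wls*, which carries Wnt proteins to the cell surface, had ratios of 2.45, 2.44 and 2.29, beside those of *Rspo1* above. *Adam33*, a membrane metalloprotease, was at 143, 183 and 112 CPM with ratios of 2.50, 2.75 and 3.06, and the transmembrane protein gene *Tmem145* had 2.77, 2.68 and 2.30. These 5 genes had each of their lower interval bounds above 1.5 in all 3 libraries.

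For *Thsd7a* and *Rmst* the C57BL/6 and BTBR intervals did not overlap. *Zmat4*, which encodes a zinc finger protein, had ratios of 3.18 (2.70 to 3.73) in C57BL/6, 2.94 in *Nav1* KO and 2.33 (1.97 to 2.73) in BTBR. *Thsd7a*, a membrane protein with thrombospondin repeats, was at 4.41 (3.60 to 5.38) in C57BL/6 against 2.62 and 2.16 in the other libraries. *Rmst*, a long noncoding RNA, went the other way, with 2.27 (1.94 to 2.64), 2.60 and 3.46 (2.98 to 4.02). *Medag* had ratios of 2.66, 2.26 and 2.46. *Grm2*, the presynaptic metabotropic receptor mGluR2, had ratios of 3.08 (2.20 to 4.24), 2.14 and 2.59. *Medag* and *Grm2* were not compared either with an average of 50 CPM required.

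The 8 leading lower genes had varied roles. *Abi3bp*, a matrix protein, was at 36.6, 42.7 and 102 CPM in *Rorb* nuclei and at 127, 108 and 281 CPM in *Rorb*-0 nuclei. Its level was therefore higher in BTBR on both sides, while its ratio was 0.289 (0.206 to 0.395), 0.397 (0.318 to 0.490) and 0.362 (0.309 to 0.422). *Ndst4*, an enzyme that sulfates heparan sulfate, was at 25.6, 30.2 and 55.5 CPM against 87.9, 80.5 and 154 CPM and had ratios of 0.291, 0.375 and 0.360. *Col6a1*, a chain of collagen VI, had ratios of 0.467, 0.346 and 0.454. *Cplx2*, a complexin that controls vesicle fusion, had 0.410, 0.452 and 0.476, and *Cdh9*, a classical cadherin, 0.418, 0.367 and 0.413. *Cald1*, which binds actin, *Rasl10a*, a Ras-like GTPase, and *Gucy1a1*, a subunit of the nitric oxide receptor, had ratios between 0.282 and 0.481.

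**Figure D2:**
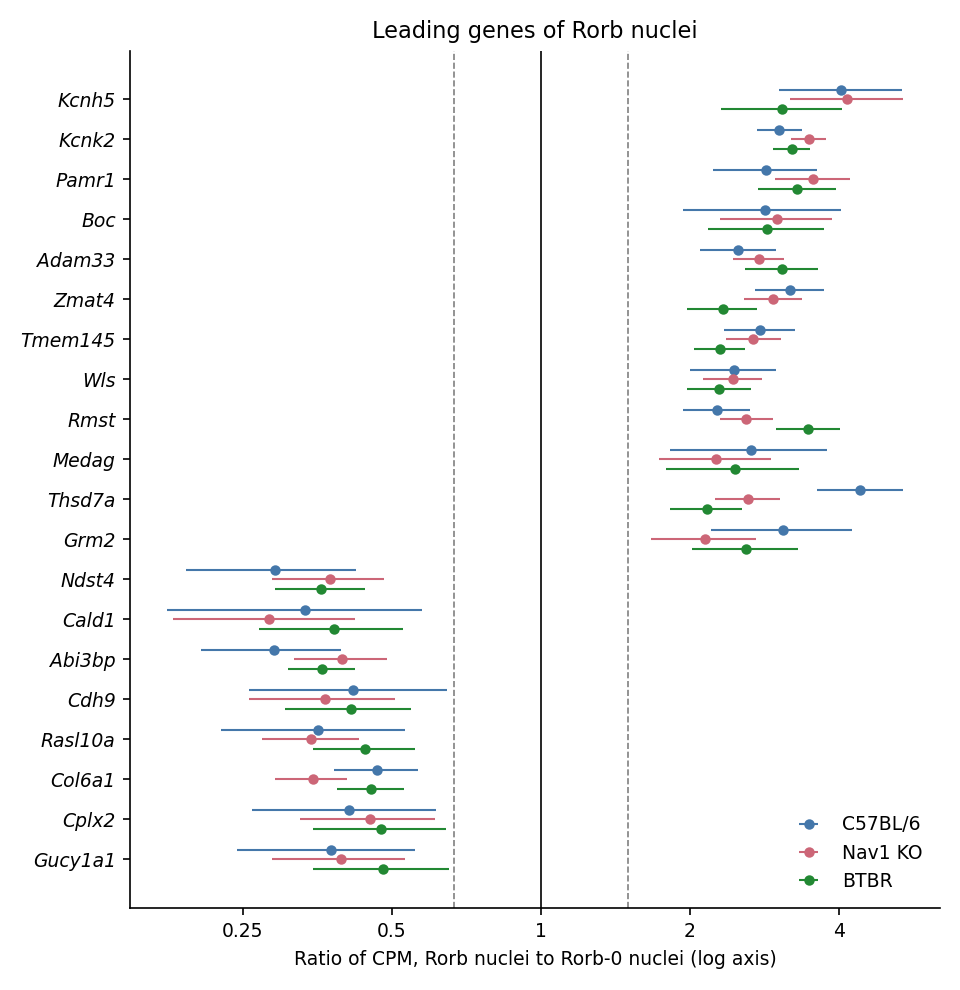
Ratio of the level (CPM) in *Rorb* nuclei to that in *Rorb*-0 nuclei of the same library (log axis) for the 12 leading higher and 8 leading lower genes. Points are libraries, bars exact 95% intervals for counting error, and dashed lines mark 1.5-fold. All points of the higher genes lie between 2.14 and 4.41, and those of the lower genes between 0.282 and 0.481.

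The level of some genes also differed between nuclei outside the limit of 3 *Rorb* UMIs. In nuclei of 3000 to 8000 UMIs from all libraries, *Kcnk2* was at 102 CPM with no *Rorb* UMI (4882 nuclei), 219.8 with 1 (968 nuclei), 321 with 2 (506), 395 with 3 (288), 391 with 4 or 5 (264) and 537 with 6 or more (126). *Pamr1* was at 25.1, 58.5, 87.0, 93.1, 95 and 93.8 CPM in the same classes, and *Foxp1*, a forkhead transcription factor, at 188, 246, 279, 282, 280.0 and 301 CPM. *Bcl11b* (CTIP2), a transcription factor of layer 5 neurons that project out of the telencephalon, ran the other way with 90.9, 66.3, 68.2, 43.5, 37.3 and 33.4 CPM. The classes share their libraries, and the nuclei with 1 or 2 UMIs were not used by the main comparison.

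**Figure D3:**
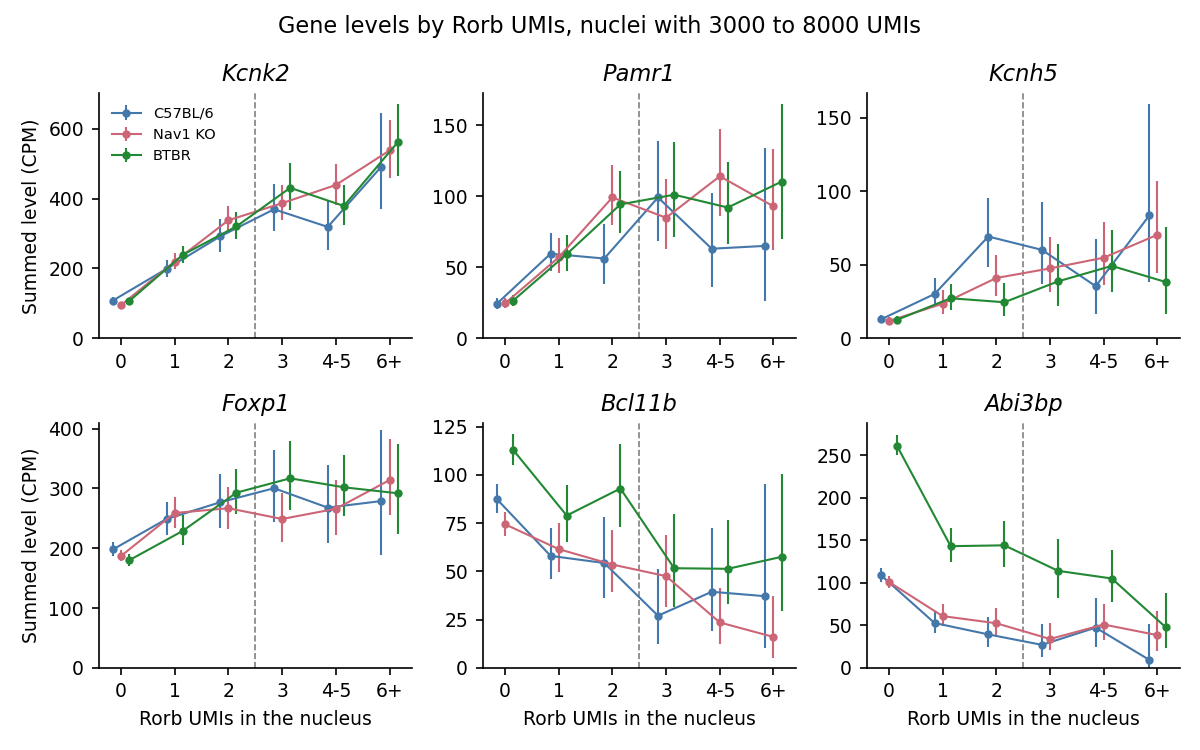
Summed level (CPM, vertical axis) of 6 genes in nuclei of 3000 to 8000 UMIs that met the other clauses, by *Rorb* UMIs (horizontal axis), in 3 libraries. Bars are exact 95% intervals for counting error and the dashed line marks the limit of 3 UMIs. *Kcnk2* climbs from 108, 94.7 and 106 CPM at 0 UMIs to 492, 538 and 561 CPM at 6 or more, and *Bcl11b* and *Abi3bp* run down.

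Over all genes compared with *Rorb*-0 nuclei, 1.12% were higher and 0.949% lower, and the counts of the lists below stand beside these shares. Of 25 transcription factors of cortical projection neurons compared, 2 were higher in *Rorb* nuclei and 3 lower, and the median was 1.01, 1.00 and 0.988. *Pou3f2* (BRN2), a POU factor of upper layer neurons, was at 64.9, 62.7 and 65.4 CPM with ratios of 1.70 (1.30 to 2.18), 1.63 (1.34 to 1.98) and 1.71 (1.38 to 2.10). *Foxp1* was at 312, 286 and 298 CPM with ratios of 1.5, 1.53 and 1.56, at the edge of the limit. The lower ones were *Bcl11b* at 0.353 (0.246 to 0.492), 0.391 (0.300 to 0.501) and 0.546 (0.442 to 0.669), *Tle4*, a corepressor of layer 6, at 0.579, 0.540 and 0.613, and *Nfia* at 0.479, 0.637 and 0.502. *Bcl11b* and *Tle4* are also markers of deep layers. Summed over the 9 layer 5 extratelencephalic markers the level was 185, 191 and 169 CPM in *Rorb* nuclei against 266, 249.5 and 253 CPM. The layer 6b markers stood at 7.31, 13.9 and 14.6 CPM against 28.7, 52.3 and 30.8 CPM. *Etv1*, a layer 5 IT marker, had ratios of 1.11, 1.04 and 1.56.

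Among 18 glutamate receptor genes compared, 3 were higher and 3 lower, against 1.12 and 0.949% of all genes, with a median of 0.898, 0.867 and 0.891 against 0.985, 0.999 and 0.980 over all genes. *Gria4*, an AMPA receptor subunit, was at 345, 319 and 308 CPM with ratios of 1.84, 1.71 and 1.69. The group II metabotropic receptors *Grm2* and *Grm3* were both higher, *Grm3* at 1.67, 1.69 and 1.58. The 3 lower genes included the kainate receptor subunits *Grik3* (0.609, 0.542 and 0.575) and *Grik4* (0.314, 0.310 and 0.574). None of 10 GABA-A receptor subunits and none of 29 synaptic adhesion genes was past the limit, with medians between 0.903 and 1.10.

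The next 4 lists are also to be read against 1.12% of all genes higher and 0.949% lower. Of 8 neuromodulator receptors compared, the serotonin receptor *Htr2a* was higher (37.5, 38.6 and 26.9 CPM, ratios of 1.82, 1.84 and 1.78) and the muscarinic receptor *Chrm3* was lower (0.482, 0.449 and 0.637). In 20 sodium and calcium channel genes none was higher and 2 were lower, the T-type channel gene *Cacna1h* at 0.562, 0.615 and 0.578 and the auxiliary subunit gene *Cacna2d2*. The 29 axon guidance genes held *Plxnd1*, a semaphorin receptor, on the higher side (1.87, 2.82 and 1.78) and *Nrp1*, a semaphorin coreceptor, and *Epha3* on the lower side. *Nrp1* was at 32.9, 32.5 and 19.3 CPM with ratios of 0.511, 0.443 and 0.403. Of 17 cadherins and protocadherins, *Cdh8* and *Cdh12* were higher, *Cdh9* and *Cdh13* lower, and 13 neither.

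The relatives of *Rorb* were not past the limit. *Rora* (RORα) had ratios of 1.67 (1.23 to 2.22), 1.97 (1.59 to 2.43) and 1.33 (1.07 to 1.64), above 1 in all 3 libraries but under 1.5 in BTBR. The REV-ERB genes *Nr1d1*, at 1.36, 1.42 and 1.70, and *Nr1d2*, at 1.31, 1.21 and 1.16, were on the same side. Of 11 circadian clock genes compared none was past the limit, and *Arntl* (BMAL1), a target of these receptors, was at 42.0, 55.3 and 55.5 CPM with ratios of 1.29, 1.42 and 1.37.

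Promoters of genes higher in *Rorb* nuclei were searched for AGGTCA, the half-site bound by ROR receptors, on both strands (TGACCT where the site is on the other strand), without overlap with another motif being considered. RefSeq promoters (GRCm38.p6, 250 bases before to 50 after the start) hold it in 5340 of 32851 cases (16.3%). A promoter was matched for 53 of the 72 higher genes (73.6%) and 39 of the 61 lower genes (63.9%), so a share over either list is void as a check. Among the promoters that were matched, 5 of 77 of the higher genes (6.49%) and 3 of 53 of the lower genes (5.66%) held it, from which nothing is concluded. The following 30-base windows are shown because the half-site, in capitals, lies before the start of genes higher in *Rorb* nuclei. *Satb1*, a chromatin organizer of cortical neurons, had ratios of 1.81, 1.96 and 1.98, and *Dkkl1* 1.86, 2.14 and 2.49. *Galntl6*, a glycosyltransferase, had 2.95, 1.94 and 2.13. Each is read 5′ to 3′ on the strand of the gene, which is minus for all 4.
Satb1, chr17:51826603-51826632: tactcagagctaTGACCTgatttgtggcgc
Plxnd1, chr6:115995091-115995120: atcggccaccagTGACCTcggaccgcgggg
Dkkl1, chr7:45212043-45212072: gttttatgagtaAGGTCAccaggtgtagac
Galntl6, chr8:58911736-58911765: ttatattaatggAGGTCAatagatttaacg
The first base of the half-site lies 32, 103, 177 and 126 bases from the start in *Satb1*, *Plxnd1*, *Dkkl1* and *Galntl6*. These genes were picked for holding the letters, which describe a sequence and not a bound site.

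*Rorb* nuclei were also set against layer 2/3 nuclei (593, 811 and 501, with 3 or more UMIs over *Cux2*, *Otof* and *Rasgrf2*) and layer 6 nuclei (73, 73 and 70, with 3 or more over *Foxp2* and *Hs3st4*). Against layer 2/3 nuclei, 95 of 6318 genes were higher (1.5%) and 90 lower (1.42%), and against layer 6 nuclei 149 of 6122 were higher (2.43%) and 135 lower (2.21%). Of the 72 genes higher than in *Rorb*-0 nuclei, 22 of the 68 compared in both sets were higher than in either layer set. They included *Kcnh5*, *Grm2*, *Boc*, *Pamr1*, *Wls*, *Zmat4*, *Tmem145*, *Thsd7a* and *Rmst*, and also *Fat3*, a giant cadherin, *Scube1*, a secreted protein, and *Hrh3*, the histamine H3 receptor. *Fat3* was at 424, 380.5 and 332 CPM against 217, 184 and 187 CPM in *Rorb*-0 nuclei. Of the 61 lower genes, 9 of the 41 compared were lower than in both layer sets, among them *Cplx2*, *Rasl10a* and *Dscaml1*. The comparisons share the counts of the *Rorb* nuclei, so they are not independent. The share of all genes past the limit against both layer sets was not counted.

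The order of the sets differed from gene to gene. *Kcnk2* in *Rorb* nuclei was 4.18, 4.23 and 3.91 times its level in layer 2/3 nuclei and 2.07, 2.19 and 1.49 times that in layer 6 nuclei. *Plxnd1* was close to layer 2/3 (1.26, 1.57 and 1.20) and far from layer 6 (4.04, 6.09 and 5.63). *Foxp1* was the reverse, at 1.67, 1.52 and 1.59 against layer 2/3 and 0.957, 1.15 and 1.23 against layer 6. *Bcl11b* was at 0.961, 0.755 and 1.14 times layer 2/3 and 0.277, 0.234 and 0.357 times layer 6, and *Tle4* at 0.195, 0.172 and 0.170 times layer 6. The layer 6 sets held 294779, 397073 and 350544 counts in all, so their ratios have wide intervals.

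The *Rorb* nuclei were not uniform. Clustering them, with each gene centred within its library, gave 6 groups that are left without a cell type name. The groups were made from variable genes of these same nuclei, so the following values are a description. Group 1 (350 nuclei, 30.1%) was led by *Scn7a*, a sodium channel, at 101 CPM against 11 in the other *Rorb* nuclei, with *Tnnc1*, *Col26a1*, *Htr2a* (64.7 CPM) and *Whrn* (60.4 CPM). Group 2 (339 nuclei, 29.1%) had the highest *Rspo1* level, at 43.8 CPM against 9.78 in the others, beside *Kcnab3*, *Adam33* (298 CPM) and *Cux1*, an upper layer homeobox factor (185 CPM). *Kcnk2* was at 616, 428, 284 and 374 CPM in groups 1 to 4.

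Group 3 (264 nuclei, 22.7%) carried genes that were lower in *Rorb* nuclei as a whole. *Ndst4* was at 105 CPM against 6.23 in the others, *Col6a1* at 201 against 33.8, *Abi3bp* at 132 against 28.8 and *Bcl11b* at 91.3 against 17.2 CPM. *Adarb2*, better known from interneurons, was at 75.6 CPM. Its nuclei were deeper, with a median of 5094.5 UMIs, and 16.3% of them were among the top 10% of doublet scores of their library. Group 4 (112 nuclei, 9.62%) was led by *Il1rapl2* at 140.3 CPM against 15.2, with *Deptor*, an inhibitor of mTOR and layer 5 IT marker, at 93.5 CPM and the layer 5 IT markers summed at 353 CPM. The middle layer markers were therefore split, with *Rspo1* in group 2 and *Il1rapl2* in group 4.

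Groups 5 and 6 carried genes of non-neuronal cells. Group 5 (85 nuclei, 7.30%) was led by *Cyp2d22*, *Atp13a4*, *Foxd1*, *Mertk* and *Slc7a11*, and its astrocyte marker sum was 1989.6 CPM, against 349.5 to 523 CPM in groups 1 to 4. Its meningeal fibroblast markers summed to 269 CPM against 4.26 to 12.1 CPM, and its mural cell markers to 189.9 CPM against 14.2 to 25.5 CPM. Of these nuclei 58.8% were among the top 10% of doublet scores. Group 6 (14 nuclei, 1.20%) was led by myelin genes such as *Opalin*, *Ermn* and *Cldn11*, with the oligodendrocyte markers summed at 2674 CPM and the microglia markers at 331 CPM. All 6 groups were present in each library. Group 1 held 77, 145 and 128 nuclei of the libraries (26.2, 30.9 and 31.9%), group 2 held 98, 141 and 100 (33.3, 30.1 and 24.9%), group 3 held 63, 94 and 107, and group 4 held 28, 47 and 37. Group 5 held 21, 38 and 26 (7.14, 8.10 and 6.48%), and group 6 held 7, 4 and 3 (2.38, 0.853 and 0.748%).

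**Figure D4:**
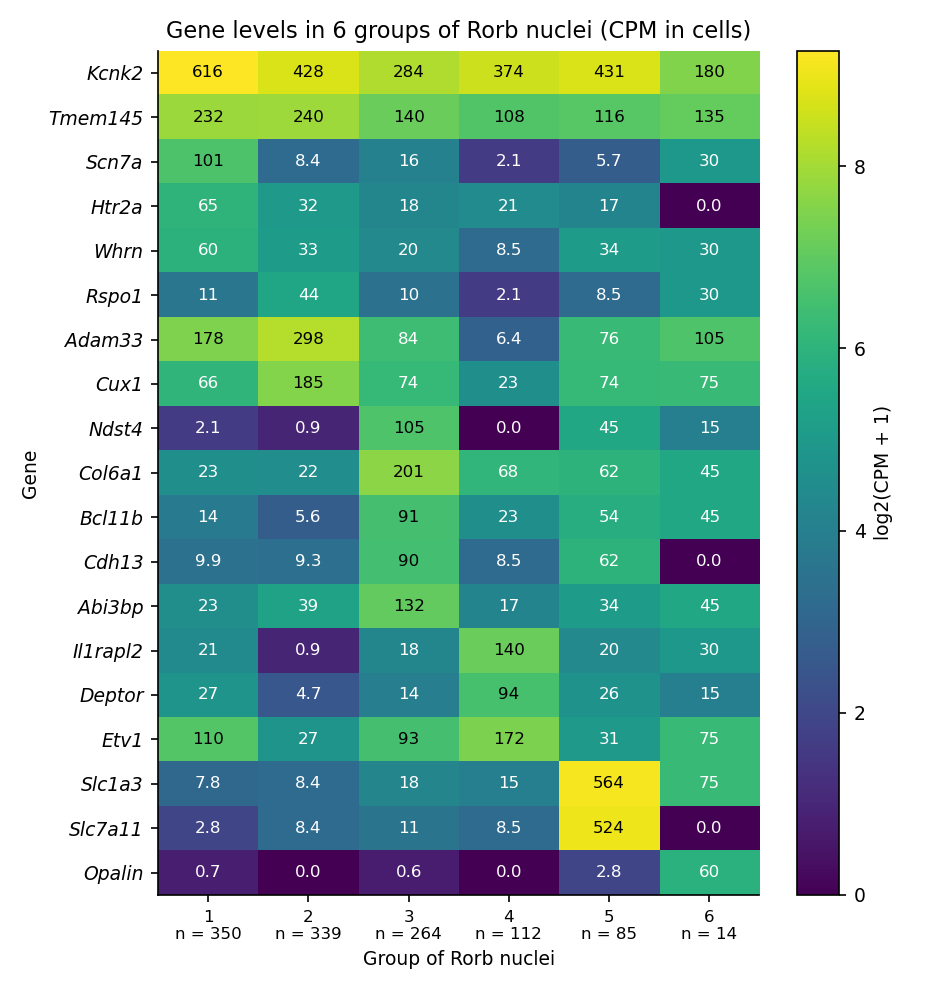
Level (CPM, number in each cell, colour on the log2(CPM + 1) scale) of 19 genes (rows) in the 6 groups of *Rorb* nuclei (columns, n nuclei over all libraries). *Rspo1* is highest in group 2, *Ndst4* and *Bcl11b* in group 3, *Il1rapl2* in group 4, *Slc7a11* in group 5 and *Opalin* in group 6.

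The astrocyte list moved with the main comparison. Over all 5 astrocyte markers outside the rule, 2 were compared, neither was past the limit in all libraries, and both were above 1 in each. Their sum was 658, 554 and 469 CPM in *Rorb* nuclei against 440.2, 342 and 329 CPM, mostly from *Slc1a2*, a glutamate transporter, at 590.4, 474 and 393 CPM. Without groups 5 and 6 the sum was 509.9, 430.5 and 392 CPM. The comparison with *Rorb*-0 nuclei then gave 82 higher and 75 lower genes, with 69 of the 72 and 54 of the 61 among them. *Gfap*, which marks reactive astrocytes, was at 0.914, 1.39 and 1.75 CPM in *Rorb* nuclei. The part of astrocyte RNA in single genes was not tested.

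The comparison of *Nav1* KO with C57BL/6 set 1 library against 1 library, so the deletion and the library cannot be told apart. *Nav1* itself was at 287 CPM (256 to 321) in C57BL/6, 237 (217 to 258) in *Nav1* KO and 126 (109 to 144) in BTBR *Rorb* nuclei. The *Nav1* KO level was 0.826 (0.716 to 0.953) times that of C57BL/6, and in *Rorb*-0 nuclei it was 0.725 times. The deletion lies in exon 1, while the 3′ tags counted here come from the other end of the mRNA, so this level does not check the label. The BTBR level was 0.438 (0.366 to 0.522) times that of C57BL/6. *Nav2* (475, 415 and 397 CPM) and *Nav3* (456, 469 and 536 CPM), the other neuron navigators, differed less.

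Of 6979 genes compared, 328 (4.70%) were at least 1.5-fold higher in *Nav1* KO *Rorb* nuclei and 519 (7.44%) at least 1.5-fold lower, and the median ratio was 0.943. A call used the ratio and not its interval, so counting error alone can put a gene of low level past the limit. At an average of 50 CPM, 104 of 3389 genes were higher and 152 lower. The split depended on the scaling. With counts scaled by the median of ratios, 469 genes were higher and 332 lower, so that the higher share of calls moved from 38.7 to 58.6%. Of the higher genes compared in layer 2/3 nuclei, 76 of 291 (26.1%) were also higher there, and of the lower genes 109 of 472 (23.1%) were also lower there. Over all 6877 genes compared in layer 2/3 nuclei, 2.78% were higher and 4.30% lower. Whatever the size of the ratio, 242 of the 291 and 430 of the 472 were on the same side of 1 there. The share of all genes on each side of 1 in layer 2/3 nuclei was not counted. These 2 counts therefore have no background and are not read as a repeat of the calls. Both sets of nuclei come from the same libraries.

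The 5 leading higher genes were *Ptgds*, *Stk19*, *Sbf1*, *Snx21* and *Rasal1*. *Ptgds*, the prostaglandin D synthase abundant in meninges and oligodendrocytes, was at 92.3 CPM in C57BL/6 and 271 in *Nav1* KO, a ratio of 2.93 (2.37 to 3.66). It was 2.99 times higher in layer 2/3 nuclei and 4.18 times in *Rorb*-0 nuclei, and 199 CPM in BTBR. Without groups 5 and 6 its ratio was 2.19. *Rasal1*, a Ras GTPase activator, was at 56.7 and 118 CPM, 2.07-fold (1.57 to 2.78), with 2.01 in layer 2/3 nuclei. *Sbf1* had 2.12 in *Rorb* and 1.85 in layer 2/3 nuclei, and *Stk19* and *Snx21* had 2.39 and 2.10 in *Rorb* nuclei. For these 4 genes beside *Ptgds* the BTBR level was 0.935 to 1.14 times that of *Nav1* KO, so C57BL/6 was the library that stood apart.

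The leading lower genes included *Smc2*, *Gabrb2*, *Rnf103* and *Neat1*. *Gabrb2*, a GABA-A receptor subunit, was at 101 CPM in C57BL/6 and 46.0 in *Nav1* KO, 0.453 (0.342 to 0.600), and at 60.2 CPM in BTBR. The same ratio was 0.649 in *Rorb*-0 nuclei and 0.771 in layer 2/3 nuclei. It was the one GABA-A subunit of 10 compared past the limit. *Smc2*, a condensin subunit, had 0.399 (0.281 to 0.563) in *Rorb* nuclei and 0.821 in layer 2/3 nuclei. The oligodendrocyte marker sum in C57BL/6 and *Nav1* KO was 253 and 129.6 CPM with groups 5 and 6 and 95.3 and 87.6 CPM without them. Among lists, 2 of 18 glutamate receptor genes, 4 of 30 synaptic adhesion genes and 3 of 28 axon guidance genes were lower, against 7.44% of all genes. On the higher side were 2 of 9 neuromodulator receptors and 2 of 9 activity-regulated genes, with none lower, against 4.70% of all genes. These list counts are by total counts and were not made with the other scaling.

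The BTBR library was further from C57BL/6, the library that the *Nav1* KO comparison also uses. Of 7063 genes, 653 (9.25%) were higher and 530 (7.50%) lower, with a median ratio of 1.00. The calls of this paragraph, too, used the ratio and not its interval. Against both other libraries, which share the C57BL/6 background, 176 of 6784 genes (2.59%) were higher in BTBR and 138 (2.03%) lower. With median of ratios scaling these became 135 and 169, so the higher share of calls moved from 56.1 to 44.4%. Of those compared in layer 2/3 nuclei, 70 of 159 higher (44.0%) and 63 of 121 lower genes (52.1%) were past the limit there too, against 2.41% and 1.79% of all genes compared there. A strain difference at a gene also alters how its reads align to the C57BL/6 reference, which cannot be told apart from a difference in level here.

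The leading differences were also seen in layer 2/3 nuclei. *Lsm4*, an RNA-binding subunit of the spliceosome, was at 7.31, 8.36 and 141 CPM, 19.3-fold (9.66 to 45.3) above C57BL/6 and 16.9-fold above *Nav1* KO, with 24.8 and 28.5 in layer 2/3 nuclei. *Sav1*, a scaffold of the Hippo pathway, was at 21.0, 17.2 and 201 CPM and *Cep19*, a centriole protein, at 15.5, 33.4 and 111 CPM. In both other libraries *Lsm4* was under the 20 CPM of the filter, and *Lsm4*, *Sav1* and *Cep19* were under the 50 CPM set for naming. They were therefore named only through their BTBR level, and the filter had a part in their rank. *Galnt1*, an enzyme that starts O-linked glycosylation, was at 211, 145 and 22.8 CPM, 0.108 (0.0748 to 0.152) and 0.157 times the other libraries. *Gabarapl2*, an autophagy protein (96.9, 88.3 and 21.0 CPM), *Pxdn*, a peroxidase (124, 130.1 and 35.6 CPM), *Hjurp*, a chaperone of centromeric histone (144, 144 and 48.5 CPM), and *Ints7*, an Integrator subunit (76.8, 61.3 and 22.2 CPM) were also lower. In layer 2/3 nuclei the 8 genes of this paragraph were past 1.5-fold on the same side against both libraries.

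Activity-regulated genes were higher in BTBR *Rorb* nuclei. Of 10 such genes compared, 6 were at least 1.5-fold above both other libraries, against 2.59% of all genes, and none was lower. They were the transcription factor genes *Fos* (11, 6.97 and 43.8 CPM), *Junb* (35.6, 53.9 and 193 CPM), *Egr1* (63.1, 59.5 and 137 CPM), *Nr4a1* (32.9, 47.8 and 90.6 CPM) and *Npas4* (41.1, 49.7 and 87.6 CPM), and *Arc* (28.3, 34.8 and 108 CPM), a synaptic regulator. *Fos* reached the average of 20 CPM only through its BTBR level, so the filter had a part in its call. *Junb* and *Arc* reached the average of 50 CPM set for naming only through BTBR. *Junb* was 5.43-fold (3.89 to 7.77) above C57BL/6 and 3.59-fold (2.90 to 4.47) above *Nav1* KO. *Homer1*, a late gene of the list, was at 204, 188 and 212 CPM. The 13 genes summed to 579, 613 and 1049 CPM in *Rorb* nuclei and 639, 612 and 837 CPM in *Rorb*-0 nuclei.

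The step was larger in *Rorb* nuclei than in the other sets for some of these genes, without a test. *Junb* was 2.78-fold above C57BL/6 in *Rorb*-0 nuclei and 2.38-fold in layer 2/3 nuclei. *Egr1* was 2.17-fold above C57BL/6 in *Rorb* nuclei, 1.18-fold in *Rorb*-0 nuclei and 1.58-fold in layer 2/3 nuclei. *Npas4* was alike, with 2.13, 1.90 and 2.30. With only 1 BTBR library, library preparation and strain cannot be told apart.

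**Figure D5:**
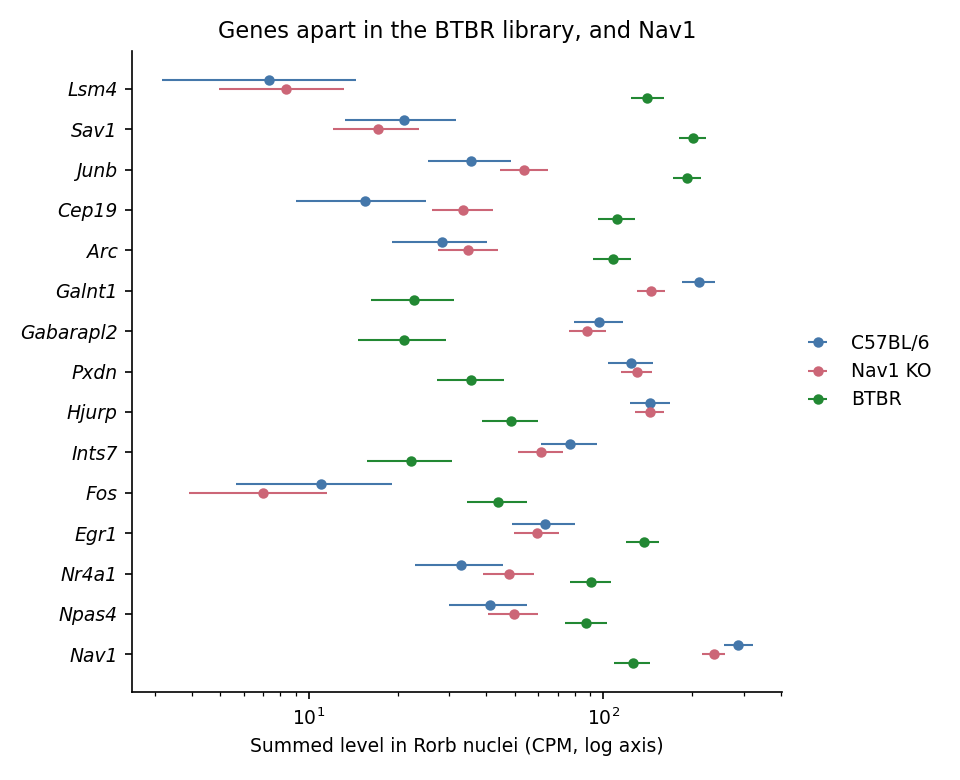
Level (CPM, log axis) in *Rorb* nuclei of 3 libraries for the 5 leading higher and 5 leading lower genes of BTBR, 4 further activity-regulated genes and *Nav1*. Points are libraries and bars exact 95% intervals for counting error. BTBR is above both other libraries for the activity-regulated genes shown and below them for *Nav1*, and the differences run from *Lsm4* at 141 CPM against 7.31 and 8.36 to *Galnt1* at 22.8 against 211 and 145.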

How the data were processed

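The 3 libraries were made with droplet 3′ chemistry from pooled PFC nuclei. The authors aligned the reads to mm10 with Cell Ranger 6.0.0 and deposited raw UMI counts per gene and nucleus, which were used as deposited. Strain differences from the reference were not corrected in the counts. Barcodes numbered 15402, 14623 and 15238 and kept nuclei 14630, 14056 and 14778 in C57BL/6, *Nav1* KO and BTBR. The cell numbers stated for the C57BL/6 and *Nav1* KO libraries equal the kept nuclei, and that stated for BTBR equals all its barcodes.

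Counts were summed over the nuclei of a set and divided by the total of the set (CPM). Genes needed an average of 20 CPM, and a gene was called past 1.5-fold where it was so in each library, or in the 1 comparison of libraries. Samples were grouped by the labels. With 1 library per group no test was run, and intervals and the floor of 3 counts for a value of 0 cover counting error only. The depth of the *Rorb* nuclei was 1094233, 2152600 and 1711445 counts. Named genes were those of the lists, the 12 higher and 8 lower genes with the largest ratio in their least extreme library, and the 5 highest and 5 lowest genes of each library comparison at an average of 50 CPM or more, without predicted, mitochondrial, sex-linked and rule genes. *Fat3*, *Scube1*, *Hrh3*, *Dscaml1*, the genes shown with a promoter and the leading genes of the groups were chosen after their values were seen. A few genes that the rule names are not reported here. The nuclei, gene lists and limits were chosen with earlier results of these data known.

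Groups came from Leiden clustering (scikit-learn 1.9.0, leidenalg 0.10.2) on 1500 variable genes and 15 components at resolution 0.5. Doublets were scored against simulated nuclei (scikit-learn 1.9.0) and kept, and the top 10% were left out as an alternative. Alternatives varied the *Rorb* minimum, depth, mitochondrial limit, comparison set, gene filter and scaling, and 3 were added after seeing the data (groups 5 and 6 left out, *Slc17a7* at 2 UMIs or more, and each library left out of the comparison with *Rorb*-0 nuclei). Scripts ran in Python 3.11.15 with numpy 2.4.6, pandas 2.3.3, scipy 1.17.1 and matplotlib 3.10.9 and were tested on simulated data.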

Additional observations from a re-analysis of the deposited data

How the results depend on the processing

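No ratio of a named gene went to the other side of 1 under an alternative, but which direction held more genes did change. The share of *Rorb* nuclei in C57BL/6, *Nav1* KO and BTBR was 4.04, 5.84 and 5.11% with 2 *Rorb* UMIs or more, 1.00, 1.83 and 1.57% with 4 or more, and 3.91, 5.53 and 4.61% among nuclei of 3000 to 8000 UMIs, always in the same order. Without groups 5 and 6 the *Nav1* KO share was 3.04%. Counts of genes followed the filter on low levels. At an average of 50 CPM, 42 genes were higher and 20 lower than in *Rorb*-0 nuclei, 104 and 152 in *Nav1* KO against C57BL/6, 246 and 197 in BTBR against C57BL/6, and 60 and 45 in BTBR against both. With a minimum of 10 counts instead, these were 252 and 286, so that lower genes outnumbered higher ones, 1492 and 1672, 1869 and 1614, and 652 and 580. Scaling by the median of ratios gave 469 higher and 332 lower genes in *Nav1* KO and 135 and 169 in BTBR against both, and *Rorb* at 4 UMIs or more gave 268 genes higher in BTBR than in both. The cause was not tested. Of the values of single named genes, 21 moved by more than their counting interval and 448 did not. *Ptgds* went to 2.19 in *Nav1* KO without groups 5 and 6, and *Neat1* then had no value. With calls from only 2 libraries, 82 to 114 genes were higher and 81 to 98 lower than in *Rorb*-0 nuclei, 114 and 98 without BTBR and 98 and 96 without C57BL/6, since fewer libraries had to pass. No paired analysis was possible between groups because each had 1 library, and no test was run on the comparison within libraries. Depth limits genes under 20 CPM, the layer 6 set of 70 to 73 nuclei and group 6 of 14 nuclei.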
